A study of Mus musculus with 20 samples.

Results

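Basement membranes are thin sheets of extracellular matrix that wrap each cardiomyocyte and lie under the endothelium of every blood vessel. A network of laminins, which are trimers of an α, a β and a γ chain, and a network of type IV collagen are joined in them by nidogens and by the proteoglycan perlecan. In the heart they anchor muscle cells through integrins and dystroglycan and shape the wall of the capillaries. The 10 genes described here were chosen by name for these roles: the collagen chains Col4a1 and Col4a2, the laminin chains Lama2, Lama4, Lama5, Lamb2 and Lamc1, the nidogens Nid1 and Nid2, and the perlecan gene Hspg2. They are 10 of 18193 genes that had a probe set with a single gene symbol on the array. All 10 were among the 12075 genes expressed highly enough to be tested. The choice was made with earlier results of these data known. Counts of these genes set beside shares of all genes are therefore a description, not an independent test.

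Levels were measured on Affymetrix mouse arrays in ventricle RNA from female C57BL/6 mice, 5 samples in each of 4 groups. All mice, the controls included, were ovariectomized at 8 weeks of age and carried a minipump with cyclodextrin-complexed estrogen or placebo for 4 weeks. The groups were 16α-LE2, labelled an agonist of estrogen receptor α, 17β-estradiol, a beta-titled group whose treatment label reads control solution, and placebo. The labels give no dose, so agonists are set side by side at equal duration only, and they do not say whether each sample was 1 animal, so p-values measure the spread between samples. Values are log2 expression values as deposited, a difference of 1 is read as 2-fold, and each gene is represented by its probe set of highest mean.

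Cardiomyocyte markers were high on every array, with a list mean between 13.8 and 14.2. All 12 endothelium, 10 fibroblast and 10 smooth muscle and pericyte markers were above the expression limit. The mean of 4 genes that mark atrial muscle varied between arrays, from 8.48 to 11.6. Estradiol replicate 33 stood apart, with Spearman correlations of 0.922 to 0.940 with the other arrays, which were 0.978 to 0.992 among themselves.

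With 16α-LE2, 8 of the 10 genes had a lower mean than with placebo, and Nid1 was the one that passed the test. Nid1 fell 1.44-fold, Col4a1 was 1.53-fold below placebo without passing, and Lamc1, Lama4, Lama2, Nid2 and Col4a2 had smaller differences in the same direction. Hspg2 and Lama5 differed from placebo by less than 0.03 log2 units, and Lamb2 had a mean 0.13 above it. The median difference of the 10 genes was −0.24, beside −0.03 over all genes tested, of which 59.7% were below 0. The call of 1 in 10 stands beside 0.224% of all 12075 genes called by limma at an adjusted p under 0.05. At an unadjusted p under 0.05, 6 of the 10 were lower and none was higher, beside 9% of all genes, 7.79% being lower and 1.21% higher. Because these are bulk samples, fewer cells of a type and less RNA per cell cannot be told apart.

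**Figure D1:**
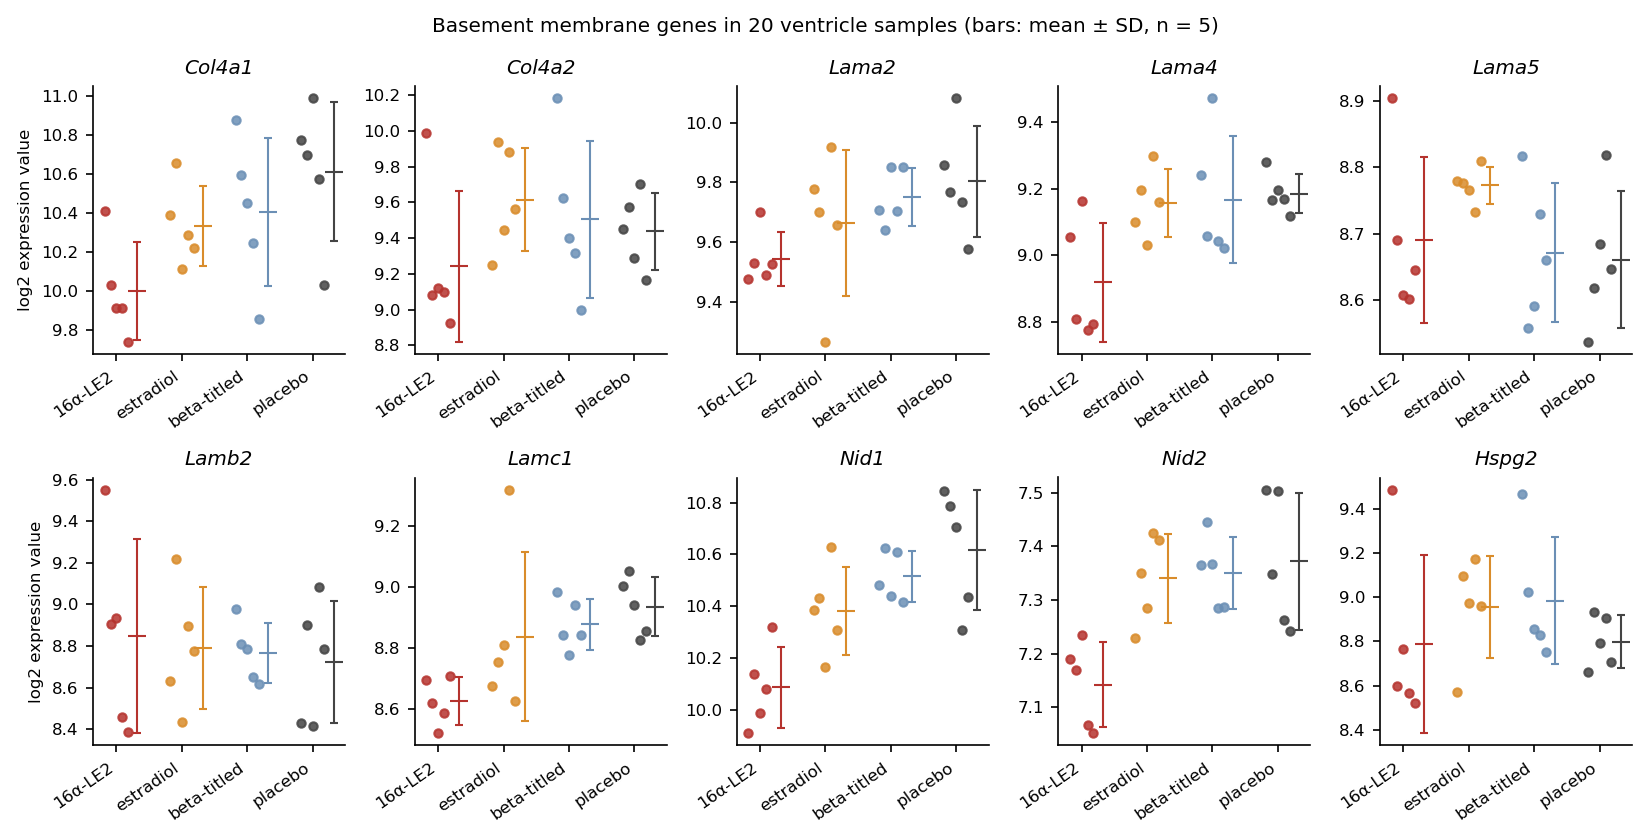
Log2 expression value of each of the 10 basement membrane genes, 1 point per array, with the mean and SD of 5 arrays beside the points of each group. For Lamc1 and Nid2 the 16α-LE2 points all lie under the placebo points, and for Col4a2, Lamb2 and Hspg2 1 array, replicate 29, lies highest among the 16α-LE2 points.

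**Figure D2:**
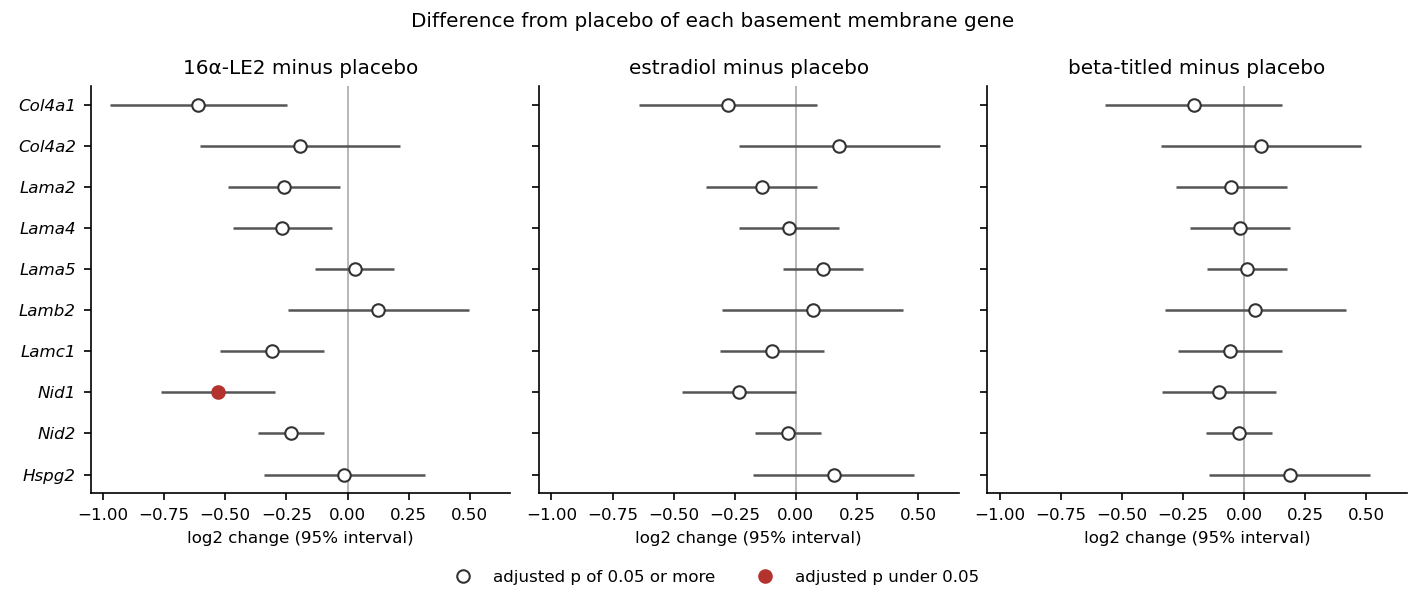
Log2 change against placebo with its 95% interval for the 10 genes, in 16α-LE2, estradiol and beta-titled samples. Filled symbols mark an adjusted p under 0.05, reached by Nid1 with 16α-LE2 alone, and the intervals of Lama5, Lamb2 and Hspg2 include 0 in all 3 panels.

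Col4a1 and Col4a2 encode the chains that twist together in the most widespread form of type IV collagen. They lie head to head on chromosome 8 and are transcribed in opposite directions from a common promoter region, which is shown because their levels are compared below. In RefSeq (GRCm38.p6) their first annotated bases lie 21 bases apart, and each lies inside the annotated span of the other gene. The windows from 250 bases before to 50 bases after each start share 78 bases, printed in capitals on both strands.
Col4a1, chr8:11312777-11313076, minus strand: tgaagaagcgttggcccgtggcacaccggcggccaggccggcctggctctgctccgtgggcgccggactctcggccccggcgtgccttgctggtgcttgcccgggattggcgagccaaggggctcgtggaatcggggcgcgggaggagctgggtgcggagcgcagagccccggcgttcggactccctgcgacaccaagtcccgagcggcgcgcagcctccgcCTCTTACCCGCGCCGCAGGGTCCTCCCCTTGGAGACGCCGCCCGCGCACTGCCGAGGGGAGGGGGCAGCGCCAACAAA
Col4a2, chr8:11312555-11312854, plus strand: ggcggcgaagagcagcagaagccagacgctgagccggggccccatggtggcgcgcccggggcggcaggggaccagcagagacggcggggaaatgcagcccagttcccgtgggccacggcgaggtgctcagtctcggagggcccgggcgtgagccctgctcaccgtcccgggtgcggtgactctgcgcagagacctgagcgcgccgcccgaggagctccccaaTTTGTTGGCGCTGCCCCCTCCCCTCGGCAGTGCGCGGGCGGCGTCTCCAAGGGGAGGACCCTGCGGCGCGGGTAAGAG
A GC box, searched as GGGCGG on both strands and bound by factors of the Sp1 family, was found 1 time in the Col4a1 window and 3 times in the Col4a2 window. The Col4a1 match and 1 of the 3 Col4a2 matches are the same site, read on opposite strands within the shared bases. Such a match was present in 35.7% of all 32851 promoter windows of this length. Each window held 1 CCAAT, which 37.4% of all windows have, and neither held TATAAA, which 13.6% have. The palindromic estrogen response element, GGTCA and TGACC with any 3 bases between them, was in 0.07% of windows and in none of the 7 windows given for these genes, namely those of Col4a1, Col4a2, Lama2, Lama5, Lamb2, Nid1 and Hspg2. Its half-site AGGTCA, which 16.3% of windows hold, was in none of the 7 either.

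Col4a1 was at 10.41, 10.03, 9.92, 9.91 and 9.74 in the 16α-LE2 samples (replicates 29, 30, 32, 33 and 34), at 10.39, 10.66, 10.11, 10.29 and 10.22 with estradiol (29, 30, 33, 34 and 35), at 10.87, 10.59, 10.45, 10.25 and 9.86 in the beta-titled samples (31, 32, 33, 35 and 36), and at 10.77, 10.70, 10.99, 10.57 and 10.03 with placebo (31, 32, 33, 34 and 36). All 5 of the 16α-LE2 samples lay under the placebo mean, and the groups overlapped through placebo replicate 36. The log2 change of Col4a1 with 16α-LE2 was −0.61 ± 0.18 (SE), with a 95% interval from −0.97 to −0.25, which missed the threshold (limma adjusted p = 0.173). Its other probe set differed by −0.33 ± 0.12 log2 units (SE), and in a fit of all probe sets the limma adjusted p was 0.488. Without placebo replicate 36 the change of Col4a1 was −0.76 and passed (limma adjusted p = 0.0494). That was the only 1 to pass of 20 fits that each left out 1 array. Over these fits the change ran from −0.76 to −0.52 and the limma adjusted p from 0.0494 to 0.491.

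Col4a2 differed less from placebo with 16α-LE2 than Col4a1 did. It was at 9.99, 9.08, 9.12, 9.10 and 8.93 with 16α-LE2, at 9.25, 9.94, 9.45, 9.88 and 9.56 with estradiol, at 10.18, 9.62, 9.40, 9.32 and 8.996 in the beta-titled samples, and at 9.45, 9.58, 9.29, 9.71 and 9.17 with placebo. Of the 16α-LE2 samples, 4 lay below all placebo samples and replicate 29 lay above them all. The log2 change with 16α-LE2 was −0.19 ± 0.20 (SE; limma adjusted p = 0.862), and without 16α-LE2 replicate 29 it was −0.38.

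The laminin chains followed, beginning with the α chains. Lama2 encodes the α2 chain of the muscle fibre basement membrane, whose loss causes a congenital muscular dystrophy. It was at 9.48, 9.53, 9.70, 9.49 and 9.53 with 16α-LE2, at 9.78, 9.70, 9.27, 9.92 and 9.66 with estradiol, at 9.71, 9.64, 9.85, 9.70 and 9.85 in the beta-titled samples, and at 9.86, 9.77, 10.08, 9.73 and 9.58 with placebo. Its log2 change with 16α-LE2 was −0.26 ± 0.11 (SE; limma adjusted p = 0.484), with all 5 samples under the placebo mean and the groups overlapping.

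Lama4 encodes an α chain of vessel walls and of cardiac muscle. It was at 9.06, 8.81, 9.16, 8.77 and 8.79 with 16α-LE2, at 9.10, 9.20, 9.03, 9.30 and 9.16 with estradiol, at 9.24, 9.06, 9.47, 9.04 and 9.02 in the beta-titled samples, and at 9.28, 9.17, 9.20, 9.17 and 9.12 with placebo. With 16α-LE2, replicates 30, 33 and 34 lay below every sample of the other groups, while replicates 29 and 32 lay among them. The log2 change of Lama4 was −0.27 ± 0.10 (SE; limma adjusted p = 0.369). Its other probe set, with a mean of 6.42 that lies under the expression limit, differed by −0.03 ± 0.06 log2 units (SE). In a fit of all probe sets its limma adjusted p was 0.922.

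Lamc1 encodes the γ1 chain, which most laminins contain and to which the nidogens bind. It was at 8.70, 8.62, 8.52, 8.59 and 8.71 with 16α-LE2, at 8.68, 8.76, 8.81, 9.32 and 8.63 with estradiol, at 8.98, 8.84, 8.78, 8.94 and 8.84 in the beta-titled samples, and at 9.01, 9.05, 8.94, 8.83 and 8.86 with placebo. All 16α-LE2 samples were below all placebo samples, and the difference of −0.31 ± 0.10 log2 units (SE) did not pass (limma adjusted p = 0.282). Groups that did not overlap in this direction were found for 2.7% of all genes in this comparison and for 2 of these 10, the other being Nid2. The other probe set of Lamc1, with a mean of 6.96, differed from placebo by −0.04 ± 0.06 log2 units (SE), with overlapping samples. In a fit of all probe sets its limma adjusted p was 0.903.

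The remaining laminin genes differed little from placebo. Lama5, a chain of the endothelial basement membrane, averaged 8.69 ± 0.13 with 16α-LE2 and 8.66 ± 0.10 with placebo (SD, n = 5 each), a log2 change of 0.03 with a 95% interval from −0.13 to 0.19. Lamb2, the β2 chain, averaged 8.85 ± 0.47 with 16α-LE2 and 8.72 ± 0.29 with placebo (SD, n = 5 each), a log2 change of 0.13 with an interval from −0.25 to 0.50. In 16α-LE2 samples Lamb2 ran from 8.39 in replicate 34 to 9.55 in replicate 29, and without replicate 29 its change was −0.05, that of Lama5 being −0.02.

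Nid1 and Nid2 encode the nidogens, which link laminin to type IV collagen. The promoter window of Nid1 is given because Nid1 was the gene that passed, with its 1 GC box in capitals.
Nid1, chr13:13437352-13437651, plus strand: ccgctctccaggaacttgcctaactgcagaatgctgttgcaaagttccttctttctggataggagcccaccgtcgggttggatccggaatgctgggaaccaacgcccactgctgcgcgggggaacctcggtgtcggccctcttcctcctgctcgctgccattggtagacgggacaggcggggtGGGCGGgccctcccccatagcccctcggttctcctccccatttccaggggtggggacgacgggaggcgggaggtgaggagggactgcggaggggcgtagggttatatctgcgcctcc
Nid1 was at 9.91, 10.14, 9.99, 10.08 and 10.32 with 16α-LE2, at 10.38, 10.43, 10.16, 10.63 and 10.31 with estradiol, at 10.48, 10.63, 10.44, 10.61 and 10.42 in the beta-titled samples, and at 10.85, 10.79, 10.71, 10.31 and 10.44 with placebo. Its group means ran from 16α-LE2 at the bottom, 10.09 ± 0.16, through estradiol at 10.38 ± 0.17 and the beta-titled group at 10.52 ± 0.10, to placebo at 10.62 ± 0.23 (SD, n = 5 each). The highest 16α-LE2 sample, replicate 34, lay just above the lowest placebo sample, also numbered 34. The log2 change with 16α-LE2 was −0.53 ± 0.11 (SE), its 95% interval ran from −0.76 to −0.30, and its limma adjusted p of 0.0444 placed Nid1 at rank 27 of the 27 genes called.

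This call lay at the threshold. The change kept its sign and a size of −0.61 to −0.47 when any single array was left out. The call was kept in 6 of these 20 fits, with limma adjusted p from 0.0164 to 0.205 over all of them. It was lost without 16α-LE2 replicate 29, 30, 32 or 33, beta-titled replicate 31, 33, 35 or 36, estradiol replicate 29, 30 or 35, or placebo replicate 31, 32 or 33. It was kept without estradiol replicate 33 (limma adjusted p = 0.022) and lost after quantile normalization (log2 change −0.41, limma adjusted p = 0.156). Of 13 other settings in all, 9 lost it, the other probe sets of Nid1 included. Among them were no filter on low values (limma adjusted p = 0.0582), the mean of probe sets per gene (log2 change −0.19, limma adjusted p = 0.403), centring on array medians (0.0648), and only the compared groups in the fit (0.0745). The array holds 2 more Nid1 probe sets. The brighter of these averaged 7.70 with 16α-LE2 and 7.84 with placebo, a difference of −0.14 ± 0.10 (SE), and the dimmer 6.16 with 16α-LE2 and 6.06 with placebo, a difference of 0.11 ± 0.08 (SE) at levels under the expression limit of 6.93. In a fit of all probe sets the limma adjusted p was 0.756 for the brighter, 0.759 for the dimmer and 0.0823 for the probe set used here.

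**Figure D3:**
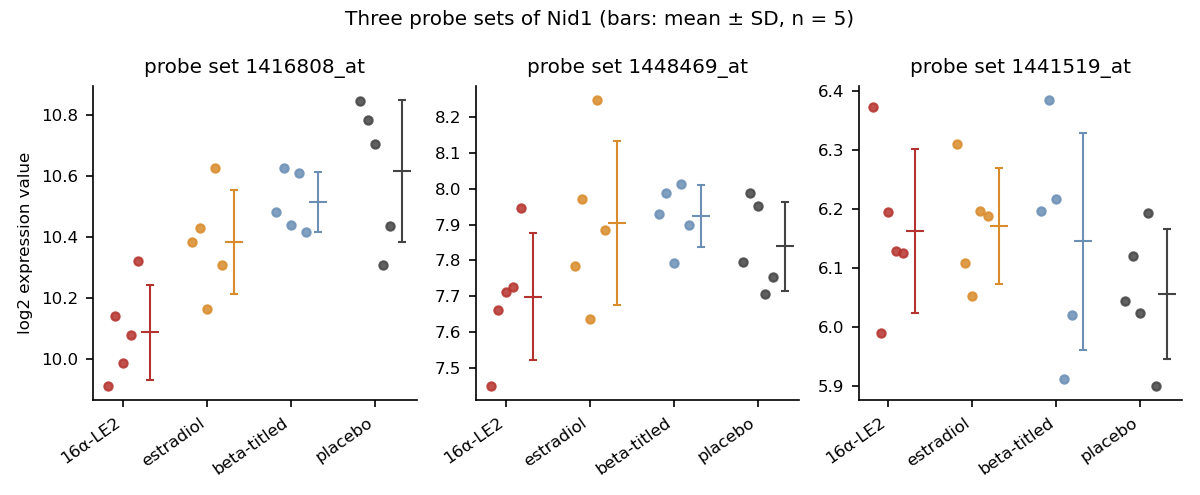
Log2 expression value of the 3 Nid1 probe sets, 1 point per array, with mean and SD of 5 arrays per group. The 16α-LE2 mean is the lowest of the groups in the left and middle panels (10.09 and 7.70), and not in the right one, where values lie near the bottom of the range.

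Nid2, the paralog of Nid1, was at 7.19, 7.17, 7.23, 7.07 and 7.05 with 16α-LE2, at 7.23, 7.35, 7.28, 7.42 and 7.41 with estradiol, at 7.36, 7.45, 7.37, 7.29 and 7.29 in the beta-titled samples, and at 7.51, 7.35, 7.50, 7.26 and 7.24 with placebo. No 16α-LE2 sample reached any beta-titled or placebo sample. The log2 change against placebo was −0.23 ± 0.07 (SE), with an interval from −0.36 to −0.10, short of the threshold (limma adjusted p = 0.168). These values lie near the bottom of the range of the array, and background signal was not separated from them.

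Hspg2 encodes perlecan, the large heparan sulfate proteoglycan that binds growth factors in the basement membrane. It was at 9.49, 8.60, 8.76, 8.57 and 8.52 with 16α-LE2, at 8.57, 9.09, 8.97, 9.17 and 8.96 with estradiol, at 9.46, 9.02, 8.85, 8.83 and 8.75 in the beta-titled samples, and at 8.66, 8.93, 8.79, 8.90 and 8.71 with placebo. As with Col4a2, 16α-LE2 replicate 29 and beta-titled replicate 31 were the highest arrays of all. The log2 change with 16α-LE2 was −0.01 ± 0.16 (SE; limma adjusted p = 0.992), and without 16α-LE2 replicate 29 it was −0.19. The other probe set of Hspg2, with a mean of 8.41, differed from placebo by 0.03 ± 0.10 log2 units (SE). In a fit of all probe sets its limma adjusted p was 0.958. The mean of the endothelium markers in replicate 29 was 9.36, against 8.94 to 9.15 in the other 16α-LE2 arrays. That of the smooth muscle and pericyte markers was 9.63, against 9.34 to 9.53. The part of these markers in the high values was not tested.

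Estradiol, the natural ligand of the estrogen receptors, gave no call among the 10 genes, nor among all 12075, so that 0% were called. At an unadjusted limma p under 0.05 none of the 10 passed either, beside 9.61% of all genes. Against placebo, Col4a1 differed by −0.28 ± 0.18 and Nid1 by −0.23 ± 0.11 (SE), with limma adjusted p of 0.506 and 0.499. For Col4a2 the difference was 0.18 ± 0.20 (SE) and the limma adjusted p 0.661. The median was −0.03 for the 10 genes and −0.03 over all genes, and 6 of the 10 were below placebo, beside 57.2% of all genes. Nid2, at −0.03 with an interval from −0.17 to 0.10, had a mean close to that of placebo. The beta-titled group had 0% of genes called against placebo, with none of the 10 at an unadjusted limma p under 0.05 beside 5.7% of all genes, and differences from −0.21 for Col4a1 to 0.19 for Hspg2.

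16α-LE2 was next compared with estradiol in all 10 genes, at an equal 4 weeks and without a known common dose. None of the 10 passed between 16α-LE2 and estradiol, beside 0.0166% of all genes, and 9 of the 10 had the lower mean with 16α-LE2, beside 56.3% of all genes. At an unadjusted limma p under 0.05, 3 were lower and none was higher, beside 5.18% of all genes in either direction and 2.92% lower. These were Nid2, with −0.20 (limma adjusted p = 0.698; 95% interval −0.33 to −0.06), Nid1, with −0.30 from −0.53 to −0.06, and Lama4, with −0.24 from −0.44 to −0.03 (limma adjusted p = 0.875 for both). Col4a1 and Col4a2 differed by −0.33 and −0.37, with intervals from −0.69 to 0.03 and from −0.78 to 0.04, and Lamc1 by −0.21, with one from −0.42 to 0.00139. These intervals leave room for differences near 0 as well as for sizeable ones, so equal action was not shown. Over fits that each left out 1 array, the difference of Lamc1 from estradiol ran from −0.26 to −0.09. Estradiol replicate 34, at 9.32, held the highest Lamc1 value.

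Set against the beta-titled group, 16α-LE2 gave no call among the 10 genes, beside 0.174% of all genes. At an unadjusted limma p under 0.05, 5 of the 10 were lower and none was higher, beside 5.59% of all genes in either direction and 2.83% lower. Nid1 differed by −0.43 ± 0.11 (SE; limma adjusted p = 0.171) and Nid2 by −0.21 ± 0.07 (SE; limma adjusted p = 0.337), without overlap of the samples. Lamc1 differed by −0.25 (limma adjusted p = 0.715), also without overlap, which 1.28% of all genes showed in this direction, and Col4a1 by −0.40 and Lama4 by −0.25 (limma adjusted p = 0.784 and 0.675). The comparisons with placebo and with the beta-titled group share the 16α-LE2 arrays.

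Over the 20 arrays, the 10 genes did not vary as one block. Of their 45 pairs, 35 had a positive Pearson correlation and 19 an adjusted permutation p under 0.05 (two-sided, 100000 resamples, adjusted over the 45). Arrays were permuted across groups, so differences between groups enter these p-values. The same shares were not computed over all gene pairs, so these counts cannot be called particular to the 10 genes. The closest pair was Col4a2 with Hspg2 (r = 0.91, permutation p = 1e-05, the smallest possible here, adjusted p = 0.00045; Spearman's rho = 0.89, permutation p = 1e-05, adjusted p = 0.000225). It kept r = 0.87 without 16α-LE2 replicate 29 and beta-titled replicate 31, and had r = 0.93 after group means were subtracted. These r values rest on 1 probe set per gene. The other Hspg2 probe set, with a mean of 8.41, was not correlated with Col4a2. That probe set was lowest in estradiol replicate 33, at 7.98, where the one used was at 8.97. Lamc1 with Nid1, which bind each other as proteins, followed (r = 0.77, permutation p = 8e-05, adjusted p = 0.0018; rho = 0.87, permutation p = 1e-05, adjusted p = 0.000225). Without estradiol replicate 34 and 16α-LE2 replicate 32, the arrays farthest from the median of Lamc1, r was 0.81, and after subtraction of group means it was 0.57.

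Col4a1 and Col4a2, which share the promoter region shown above, had a lower r before group means were subtracted (r = 0.66, permutation p = 0.00181, adjusted p = 0.00905; rho = 0.72, permutation p = 0.00058, adjusted p = 0.00411). Without the arrays farthest from the median of Col4a1, placebo replicate 33 and 16α-LE2 replicate 34, r was 0.75, and after subtraction of group means it was 0.72, above that of Lamc1 with Nid1. Among placebo samples, replicate 33 had the highest Col4a1, while its Col4a2 lay under the placebo mean. The lowest of the 45 correlations was that of Lama5 with Nid1 (r = −0.37, permutation p = 0.106, adjusted p = 0.170; rho = −0.34, permutation p = 0.145, adjusted p = 0.225), which was −0.033 without placebo replicate 31 and 16α-LE2 replicate 29, and −0.50 after subtraction of group means.

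**Figure D4:**
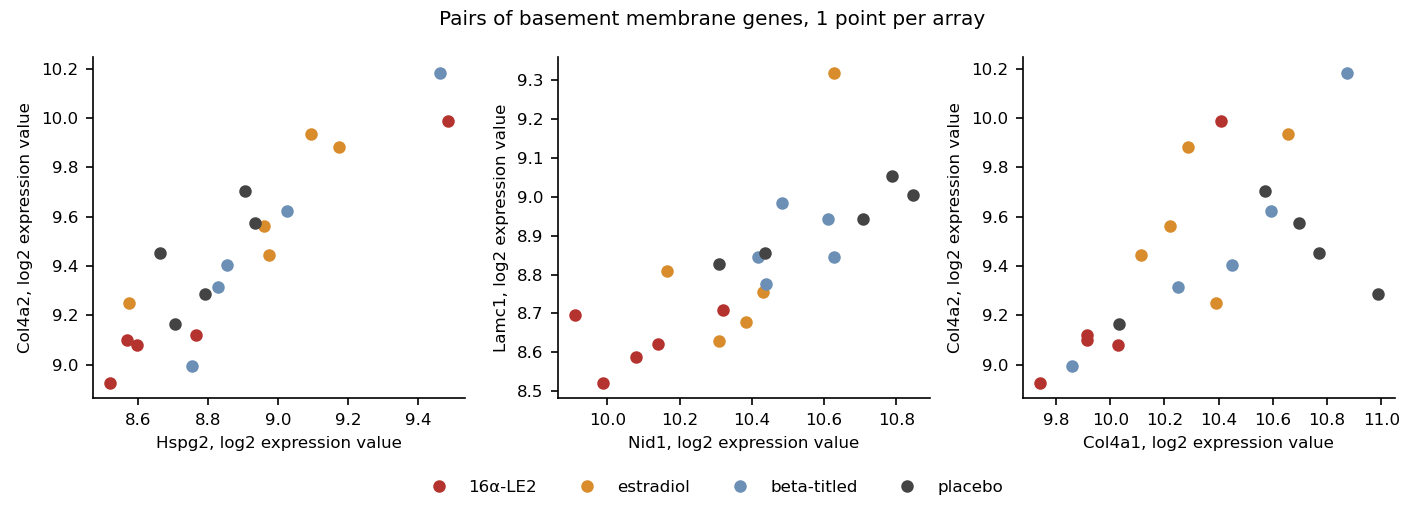
Pairs of genes on the log2 scale, 1 point per array, coloured by group: Hspg2 with Col4a2 (r = 0.91), Nid1 with Lamc1 (r = 0.77) and Col4a1 with Col4a2 (r = 0.66). The 16α-LE2 points lie at the lower left, apart from replicate 29 in the left and right panels.

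The mean of the standardized values of the 10 genes ran from −1.27 to 0.37 with 16α-LE2, from −0.47 to 0.97 with estradiol, from −0.35 to 1.01 in the beta-titled samples and from −0.35 to 0.57 with placebo. Of the other genes tested, those most like this mean over the 20 arrays were Pdgfrb, the platelet-derived growth factor receptor of pericytes and fibroblasts (r = 0.93), Col1a2, a chain of type I collagen (r = 0.90), Cdh5, the cadherin of endothelial junctions (r = 0.87), Sh3pxd2a (r = 0.86), Ano6 (r = 0.86) and Col6a1, a chain of type VI collagen (r = 0.84). These r values describe likeness over 20 shared arrays and were not tested.

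Other genes of basement membranes were put into lists, which were chosen with earlier results of these data known. Their counts are therefore a description, not independent support. They were compared between 16α-LE2 and placebo, where 0.224% of all genes were called. In that comparison 7.79% of all genes were lower at an unadjusted p under 0.05 and 1.21% higher. Among 21 tested further components, 2 fell and none rose, beside that 0.224%, with a median of −0.04. At an unadjusted p under 0.05, 3 of them were lower and 2 higher. The 2 called genes, both lower, were Sparc and Smoc2. Sparc, a secreted protein that binds type IV collagen, was at 10.85 ± 0.18 with 16α-LE2 and 11.84 ± 0.14 with placebo (SD, n = 5 each; limma adjusted p = 0.000102). Smoc2, a related matrix protein, was at 8.92 ± 0.07 with 16α-LE2 and 9.65 ± 0.29 with placebo (SD, n = 5 each; limma adjusted p = 0.0112). Sparc was also 0.90 lower than in the beta-titled group (limma adjusted p = 0.000419), and with estradiol its change against placebo was −0.38 (limma adjusted p = 0.499).

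The receptors were represented by 14 tested genes, of which 1 fell and none rose, beside 0.224% of all genes called, with a median of −0.12. At an unadjusted p under 0.05, 4 were lower, beside 7.79% of all genes, and 1 was higher, beside 1.21%. Itga6, the α6 integrin chain that binds laminin, averaged 8.68 ± 0.16 with 16α-LE2 and 9.29 ± 0.25 with placebo (SD, n = 5 each), which is a difference of −0.60 ± 0.12 (SE) without overlap (limma adjusted p = 0.0242). It also fell against the beta-titled group, by 0.58 (limma adjusted p = 0.0326). That call was kept in 11 of 20 fits that each left out 1 array and in 6 of 10 other settings, with limma adjusted p up to 0.143, and lost without 16α-LE2 replicate 30, 32, 33 or 34 or any 1 of the 5 beta-titled arrays. With estradiol its change against placebo was −0.26 (limma adjusted p = 0.499). Its call against placebo was kept in 15 of 20 fits that each left out 1 array, and lost without 16α-LE2 replicate 30, 32 or 34 or placebo replicate 31 or 33, with the mean of probe sets per gene, or with only the compared groups in the fit. Itga1, the α1 chain that binds type IV collagen and was singled out after its values were seen, lay just outside the threshold at −0.39 ± 0.08 (SE; limma adjusted p = 0.0545).

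Of 13 tested genes for folding and crosslinking of type IV collagen none passed with limma, beside 0.224% of all genes, and the median was −0.10. At an unadjusted p under 0.05, 3 were lower and none was higher, beside 7.79% of all genes lower. The smallest p values were those of Pxdn, peroxidasin, which crosslinks type IV collagen (log2 change −0.61 ± 0.14 SE, limma adjusted p = 0.0689), and Serpinh1, the collagen chaperone HSP47 (−0.47 ± 0.16 SE, limma adjusted p = 0.279). Of 13 tested genes for degradation, 1 fell and none rose, beside 0.224% of all genes called, with a median of −0.13. At an unadjusted p under 0.05, 3 were lower, beside 7.79% of all genes, and none was higher. The called gene, which fell, was Mmp2, a gelatinase that cleaves type IV collagen. Mmp2 was at 8.84 ± 0.13 with 16α-LE2 and 9.49 ± 0.19 with placebo (SD, n = 5 each; limma adjusted p = 0.0175). Its call was lost without 16α-LE2 replicate 30 or 33 or placebo replicate 31, 32 or 33, and after quantile normalization.

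**Figure D5:**
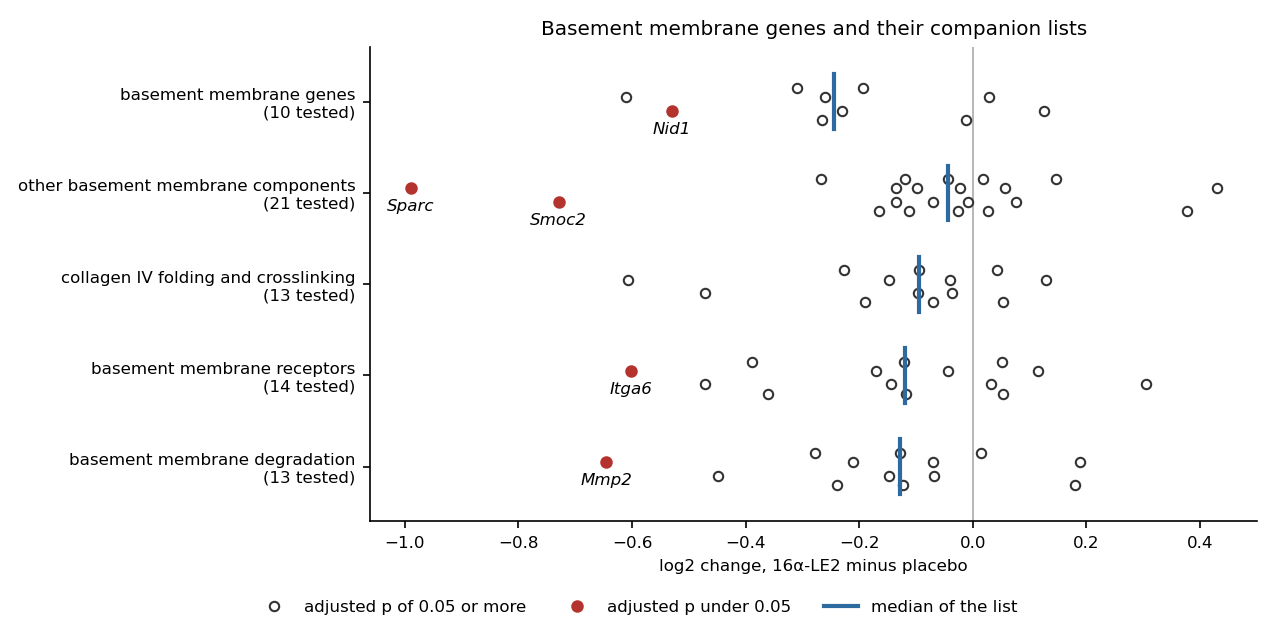
Log2 change of each tested gene with 16α-LE2 against placebo for the 10 basement membrane genes and 4 related lists, with the median of each list as a bar. The 5 filled points with names, Nid1, Sparc, Smoc2, Itga6 and Mmp2, passed at an adjusted p under 0.05, and the medians run from −0.24 to −0.04.

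Marker lists of the cell types in ventricle were examined beside these genes, and their counts stand beside 59.7% of all genes below placebo, 7.79% lower and 1.21% higher at an unadjusted p under 0.05, and 0.224% called. Of 12 endothelium markers, 10 were below placebo with 16α-LE2, 8 of them at an unadjusted p under 0.05 and none after adjustment, with a median of −0.30. In the other direction 1 marker, Flt1, a receptor of vascular endothelial growth factor, had an unadjusted p under 0.05 and was named after its values were seen. Their mean level ran from 8.94 to 9.36 with 16α-LE2 and from 9.25 to 9.53 with placebo. Of 10 fibroblast markers, 9 were below placebo, 6 at an unadjusted p under 0.05, with a median of −0.30, and Col3a1, a fibrillar collagen, was called (log2 change −1.48 ± 0.20 SE, limma adjusted p = 0.0011). Their mean level ran from 9.89 to 10.04 with 16α-LE2 and from 10.04 to 10.56 with placebo. Of 10 smooth muscle and pericyte markers, 7 were below placebo, 4 of them at an unadjusted p under 0.05 and none after adjustment, with none higher at that p. Their median was −0.07, and the mean level ran from 9.34 to 9.63 with 16α-LE2 and from 9.51 to 9.64 with placebo. Of 12 cardiomyocyte markers 8 were below placebo, the median was −0.06, with none at an unadjusted p under 0.05, and the mean level ran from 13.93 to 14.06 with 16α-LE2 and from 13.84 to 14.17 with placebo. Of 5 tested red blood cell genes all were above placebo, 4 of them at an unadjusted p under 0.05, with mean levels of 8.29 to 9.29 with 16α-LE2 and 7.94 to 8.35 with placebo, and Slc4a1, the red cell anion exchanger, was called. Of the 8 macrophage markers none passed, with a median of 0.02. The part of these cell types in the differences of the basement membrane genes was not tested.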

How the data were processed

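The labels describe total RNA from ventricle, labelled with biotin for Affymetrix mouse arrays. Values deposited by the authors run from 5.07 to 15.31 and were read as log2. Their summarization and normalization were not stated in the sources used here. Background per probe was not available, so the limit that it sets for dim probe sets was not measured. Precision is limited by the number of arrays.

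From the 45101 probe sets, 64 controls were left out, and 34945 with exactly 1 symbol in the platform annotation were used. The probe set of highest mean stood for each gene, and 12075 of 18193 genes whose mean exceeded 6.93 (the median over probe sets) were tested. All 20 arrays were fitted with limma 3.58.1 in R 4.3.3 (group means, eBayes with intensity trend), with Benjamini-Hochberg adjustment over all genes and calls at an adjusted p under 0.05. The fit was tested on simulated data with noise that was independent between genes and equal in spread on every array. That setting differs from these arrays, so it could not show how far calls depend on single arrays. Correlations used permutation with 100000 resamples. Promoter windows are from RefSeq (GRCm38.p6).

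All 10 members are described. From each related list, called genes (at most 6 a comparison), or otherwise the 2 of smallest p, were named, as were the 6 genes most like the members. The members, lists and rules were chosen with earlier results of these data known. Alternatives covered filters, probe sets, scaling, weights, groups in the fit, trend, a replicate block, pooling of placebo with beta-titled arrays, threshold and single arrays. Samples of equal number were compared by their deviations from group means: of 17 such pairs, 6 correlated above 0.1 (range −0.35 to 0.51). Of the 20 arrays, 3 correlated best with an array of their own number in another group. No share for pairs of unequal number was set beside these, so whether equal numbers mark a pairing was not settled.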

Additional observations from a re-analysis of the deposited data

Results flagged for a closer look

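In 5 of 72 groups of 5 arrays examined, covering the 10 basement membrane genes and 8 related genes, 1 array lay far from the others of its group by Dixon's criterion, which chance meets in about 1 group in 20. Col4a2 was at 9.99 in 16α-LE2 replicate 29, with the next array of the group at 9.12. Hspg2 was at 9.49 in the same array, with the next at 8.76. Lama2 was at 9.70 in 16α-LE2 replicate 32, with the next at 9.53, and Lamc1 at 9.32 in estradiol replicate 34, with the next at 8.81. Itga6 was at 9.54 in beta-titled replicate 33, with the next at 9.23.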

How the results depend on the processing

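With 16α-LE2 against placebo, 1 of the 10 genes was called. The count was 0 without the filter on low values, with the mean of probe sets per gene, after quantile normalization, after centring arrays on their median, and with only the compared groups in the fit. It was 4 with array weights (Nid1, Col4a1, Lamc1 and Nid2), where estradiol replicate 33 had a weight of 0.0795, and 0 to 2 over leaving out single arrays. With the replicate number as a block it was 1, being Col4a1 (log2 change −0.82, limma adjusted p = 0.016) in place of Nid1 (−0.53, limma adjusted p = 0.217). Leaving out 16α-LE2 replicate 29 and beta-titled replicate 31 together, chosen after the data were seen, gave 0. Against the beta-titled group 1 gene, Nid1, was called with array weights. For the other comparisons the count of these genes stayed at 0 in every setting run.

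Over all genes, 27 were called with 16α-LE2 against placebo, 3 higher and 24 lower. This was 23 after quantile normalization (7 higher, 16 lower), 16 with the mean of probe sets, 357 with array weights, 71 with pooled controls, 62 at an adjusted p under 0.1, and 8 to 74 over leaving out single arrays: 74 with estradiol replicate 33 left out, 8 or 15 with placebo replicate 31 or 33, and 11, 9 or 14 with 16α-LE2 replicate 30, 33 or 34. Against estradiol the count of 2 became 4 without the filter, with the stricter filter or with the block, 0 with the mean of probe sets, 20 with array weights, 6 at an adjusted p under 0.1, 16 without the pair of arrays, and 0 to 11 over single arrays. Against the beta-titled group the count of 21 became 32 after quantile normalization, 13 after median centring, 122 with array weights, 46 with only the compared groups, 34 at an adjusted p under 0.1, 11 without the pair of arrays, and 7 to 37 over single arrays. The counts of 0 for estradiol against placebo and against the beta-titled group became 2 and 1 without the pair of arrays, and 0 to 1 over single arrays.

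Signs turned only for differences that had not passed, apart from Nid1. With 16α-LE2 against placebo, Hspg2 was at 0.00792 with the mean of probe sets, 0.0723 after quantile normalization and 0.0286 with its other probe set, and at −0.188 to 0.0542 over single arrays. Lama5 and Lamb2 were at −0.0179 and −0.0723 with the block, at −0.0248 and −0.0508 without the pair of arrays, and at −0.0248 to 0.0684 and −0.0508 to 0.24 over single arrays. Nid1 by its dimmest probe set was at 0.11 with 16α-LE2 and 0.12 with estradiol against placebo, and at 0.0165 for 16α-LE2 against the beta-titled group, and by the middle one it was at 0.0655 with estradiol. Between 16α-LE2 and estradiol, other probe sets gave 0.0105 for Lama4 and 0.0411 for Lamc1. Nid2 with estradiol against placebo was at −0.0647 to 0.00132 over single arrays. The calls of Smoc2 and Mmp2 were lost with the block. The deposited values carry no signal over background, so the limit that dim probe sets set was not measured. Causes were not tested.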
